A study of Mus musculus with 36 samples.

Results

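The genes described here are 36 genes of glycolysis and of the response to low oxygen, chosen by name. By role they are 4 transporters, 15 glycolytic enzymes, 6 regulators of glycolytic flux and of HIF, and 11 further targets of HIF. All 36 had a row among the 20181 genes counted in the Lrig1 population and among the 22587 counted in the Lgr5 population. The cells came from mice carrying Lrig1- or Lgr5-EGFP-ires-CreERT2 together with Rosa26-fl/STOP/fl-tdTomato. Topical hydroxytamoxifen, given once to the tail skin, marks the stem cells then expressing Lrig1 (upper hair follicle) or Lgr5 (bulge) and all their progeny with tdTomato (GL, genetically labelled). A full-thickness punch wound was made in the tail 1 week later, in mice 7 to 9 weeks old. The tdTomato+ cells of a zone holding both the wound bed and distant hair follicles were sorted together before injury (0w), at 1, 2, 4 and 8 weeks after the first wound (pw1, named 1w pw1 to 8w pw1) and 1 week after a second wound made at 8 weeks (1w pw2). Each of these 6 time points had 3 libraries in each population, 36 libraries in all. The mice of 0w carried the same alleles and received the same labelling as wounded mice. Mice of later time points were older and longer past labelling than those of 0w, and no unwounded mice of matched age were among these libraries. Differences from 0w, and of 1w pw2 from 1w pw1, therefore cannot be told apart from age and time since labelling.

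Glycolysis converts glucose to pyruvate in the cytosol, and lactate dehydrogenase then turns pyruvate into lactate, which leaves the cell through monocarboxylate transporters. HIF-1, whose alpha subunit is degraded when prolyl hydroxylases have oxygen, raises transcription of glucose transporters, of most glycolytic enzymes and of genes for angiogenesis, mitophagy and collagen hydroxylation through a short core element. Keratinocytes take up glucose through Glut1, and the transcript of the oxygen-regulated subunit is not a measure of its protein.

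RefSeq promoter sequences (build GRCm38.p6) were at hand for 32 of the 36 genes. The 250 bases before each start were searched on both strands for the HIF core, written ACGTG or GCGTG. Of these 32 promoters, 17 held ACGTG and 25 held either word, against 16.6% and 38.6% of the promoters of all 27025 genes with a sequence. A match is a description of letters and not a bound site. The sequences below belong to the 4 genes called higher at 1w pw1 in both populations, read 5′ to 3′ on the strand of the gene. The core words are in capitals, on the reverse strand as CACGT or CACGC, and bases of annotated exons were left off except where a core word runs into one. The Slc2a1 window is chr4:119108495-119108713 on the plus strand, and its last 3 bases are exonic in GENCODE M21.
Slc2a1: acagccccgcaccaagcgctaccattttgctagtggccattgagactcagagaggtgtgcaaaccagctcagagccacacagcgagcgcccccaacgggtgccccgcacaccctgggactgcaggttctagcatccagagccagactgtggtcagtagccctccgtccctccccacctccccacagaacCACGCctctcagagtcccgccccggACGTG
The Slc16a3 window is chr11:120948817-120949052 on the plus strand.
Slc16a3: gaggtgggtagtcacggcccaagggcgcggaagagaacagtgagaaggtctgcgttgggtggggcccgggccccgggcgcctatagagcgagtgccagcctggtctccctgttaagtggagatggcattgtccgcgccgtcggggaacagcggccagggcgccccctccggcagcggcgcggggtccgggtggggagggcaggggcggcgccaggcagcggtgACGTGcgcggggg
The Pfkl window is chr10:78009808-78010004 on the minus strand.
Pfkl: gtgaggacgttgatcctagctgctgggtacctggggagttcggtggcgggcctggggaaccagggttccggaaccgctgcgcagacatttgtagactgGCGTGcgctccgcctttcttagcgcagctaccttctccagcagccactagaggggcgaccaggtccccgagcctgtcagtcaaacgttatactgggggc
The Ldha window is chr7:46845554-46845803 on the plus strand.
Ldha: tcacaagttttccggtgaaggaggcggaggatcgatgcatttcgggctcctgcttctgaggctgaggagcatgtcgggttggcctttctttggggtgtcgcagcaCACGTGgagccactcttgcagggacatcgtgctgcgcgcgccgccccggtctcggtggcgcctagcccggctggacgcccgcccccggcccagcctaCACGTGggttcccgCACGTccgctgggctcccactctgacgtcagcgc
The RefSeq starts of the 32 genes lay at most 183 bases from an annotated transcript start of the gene in GENCODE M21. The Ldha start lay 35 bases before the nearest one, inside the span of a longer transcript that begins at 46841475. The Ldha promoter held 5 matches to ACGTG over both strands, 4 of them as overlapping pairs in the palindrome CACGTG, which MYC-family and other factors also bind. Slc2a1 had ACGTG 36 bases and GCGTG 61 bases before its start. Slc16a3 had ACGTG 27 and 14 bases before its start, and the nearer one lies in an annotated exon and is not shown. Pfkl had GCGTG 99 bases before its start. By role, 3 of 3 transporters, 10 of 15 enzymes, 6 of 6 regulators and 6 of 8 other targets with a sequence held either word.

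Total counts per library lay between 765252 and 3365666 for the Lrig1 population and between 1297798 and 6960537 for the Lgr5 population. Levels are given as CPM, counts scaled to the TMM-normalized library size. Keratinocyte markers summed to 9897 CPM or more in every library, T cell markers were not analysed here, and Langerhans cell and macrophage markers summed to at most 74.7 CPM. Fibroblast markers summed to between 2.52 and 89.6 CPM in Lrig1 GL and between 54.6 and 377 CPM in Lgr5 GL libraries. The Lgr5 GL library replicate 1 at 1w pw1 stood apart. It held the highest level among the 3 libraries of that time for 30 of the 36 genes, the 74.7 CPM of Langerhans cell and macrophage markers and the lowest normalization factor of the population, 0.668. The single gene Gm12415 took 49.7% of its counts, within the 12% to 52.1% of all Lgr5 GL libraries. In Lrig1 GL cells the 8w pw1 libraries had a mitochondrial share of 10.9% to 14.4% and a mean GC content of counted genes of 45.4% to 46.0%, against 3.15% to 5.38% and 48.9% to 49.3% at 0w. The edgeR calls of members that rest on the replicate 1 library are given with it and without it. So are the Lgr5 GL medians of all members, of the enzymes and of the other HIF targets at 1w pw1. Counts of members called by the other tools and models are given with it only.

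Levels were compared between genes only per kb of exon. Before injury the enzymes Ldha, Aldoa, Pkm and Eno1 led on that scale in both populations. Among Lgr5 GL cells Ldha stood at 159 CPM per kb, Aldoa at 123, Pkm at 116 and Eno1 at 72, whereas Slc2a1 stood at 32.5, Slc16a3 at 0.342 and Car9 at 0.030. Among Lrig1 GL cells Eno1 stood at 168 CPM per kb, Ldha at 150.4, Aldoa at 100.2 and Pkm at 86.3, whereas Slc2a1 stood at 44.1, Car9 at 0.26 and Slc16a3 at 0.0723. The members most abundant at rest were thus enzymes, and the lactate exporter and the carbonic anhydrase were close to 0 in both populations. Population, mouse line and count table go together, so that levels were not compared between them.

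The first comparison asks which of these genes moved 1 week after the first wound. Of the 34 genes that passed the filter on low counts in Lrig1 GL cells (Slc2a3 and Pfkfb4 did not), 4 were called higher than at 0w and none lower. Calls came from edgeR's quasi-likelihood test and needed an adjusted p below 0.05 with a log2 fold change over 1 in size, which 0.168% of all 14306 genes tested met in the upward and 0.0489% in the downward direction. The 4 genes were Slc2a1, Slc16a3, Pfkl and Ldha. None of them stayed called without 0w replicate 1 or replicate 2 or with surrogate variables in the model, and 1 was called with the replicate number as a block. All 36 genes were tested in Lgr5 GL cells, where 7 were called higher and none lower, against 0.427% and 0.860% of 18025 genes. These were the same 4 with Eno1, Pkm and Car9, and none of the 7 stayed called without the replicate 1 library. The median log2 fold change of the tested members was 0.77 for Lrig1 GL and 1.11 for Lgr5 GL, against -0.05 and -0.08 for all genes tested. Without the replicate 1 library the Lgr5 GL median was 0.46, against -0.12. At an unadjusted p below 0.05, 14 and 17 members were higher, where 5.97% and 6.79% of all genes were, and without the replicate 1 library 11 were in the Lgr5 population (5.02%). All 3 libraries of 1w pw1 lay above all 3 of 0w for 12 and 17 members, a pattern of 7.51% and 9.98% of all genes. The summed level of Lrig1 and Lgr5, which mark the labelled populations, was 354 ± 86.8 CPM at 0w and 149 ± 30.5 at 1w pw1 in Lrig1 GL cells (SD, n = 3), and 517 ± 138 and 222 ± 101 CPM in Lgr5 GL cells. Fibroblast markers stood at 20.9 ± 18.2 and 42.9 ± 42 CPM, and at 213 ± 127 and 139 ± 13.3 CPM, at the same times. The part of these markers in the members' change was not tested. The libraries are bulk samples, in which a change in the share of 1 cell type and a change in RNA per cell cannot be told apart.

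**Figure D1:**
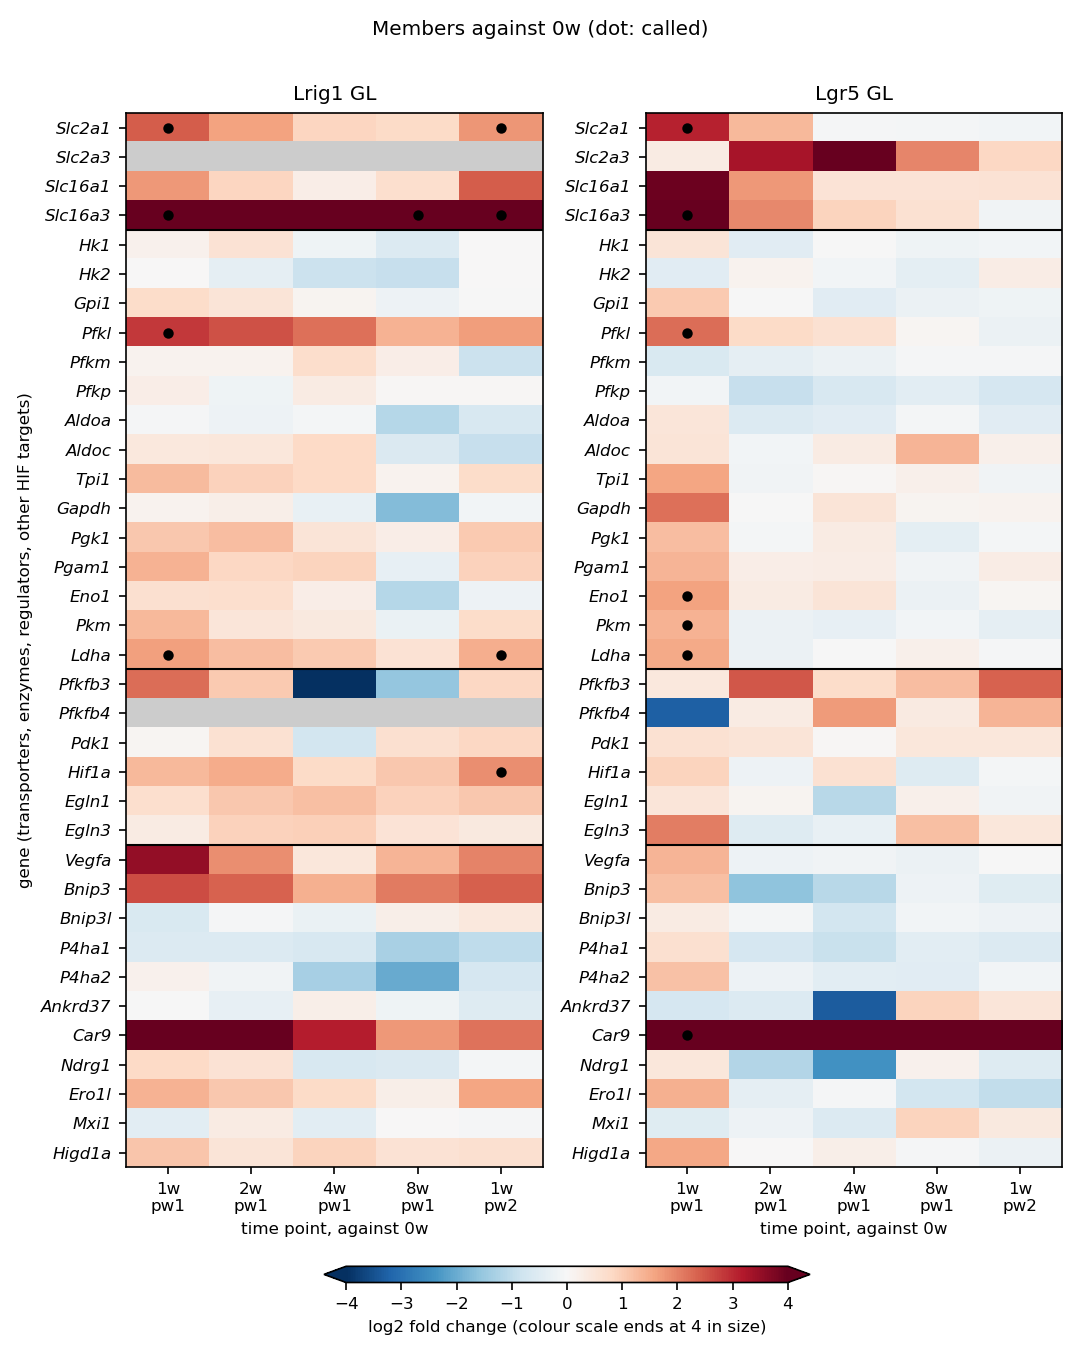
Log2 fold change of each of the 36 genes (rows, ordered by role) at each later time point against 0w (columns), with Lrig1 GL cells on the left and Lgr5 GL cells on the right; red is higher, blue lower, grey not tested, and black dots mark calls. The dots gather at 1w pw1 in both populations, with 4 and 7 genes. On the left Slc16a3 alone has a dot at 8w pw1, and 4 genes have a dot at 1w pw2, with Hif1a in place of Pfkl. On the right none has a dot at 1w pw2.

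Slc2a1 (ENSMUSG00000028645.11, chromosome 4, 119108711 to 119137983, plus strand) encodes Glut1, the glucose transporter of basal keratinocytes. Its 3 Lrig1 GL libraries stood at 109.8, 208 and 145 CPM at 0w and at 739, 991 and 781 at 1w pw1. They held 503, 536 and 387 CPM at 2w pw1, 417, 157 and 264 at 4w pw1, 188, 223 and 385 at 8w pw1 and 449, 663 and 477 at 1w pw2. Every library of 1w pw1, 2w pw1 and 1w pw2 lay above every 0w library, whereas those of 4w and 8w overlapped 0w. The log2 fold change at 1w pw1 passed the test (2.44, SE 0.38, adjusted p = 0.0123). Lgr5 GL libraries stood at 163, 132 and 46.9 CPM at 0w and at 1775, 455 and 639 at 1w pw1. Later they held 422, 184 and 244 CPM at 2w pw1, 116, 142 and 71.9 at 4w pw1, 99.4, 93.3 and 131 at 8w pw1 and 81.8, 106 and 127 at 1w pw2. Here the libraries of 1w pw1 and 2w pw1 lay above all 0w libraries, and all later ones overlapped them. The log2 fold change at 1w pw1 passed the test as well (3.07, SE 0.52, adjusted p = 0.0136), and was 2.26 without the replicate 1 library (adjusted p = 0.0561).

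Slc16a3 (ENSMUSG00000025161.16, chromosome 11, 120948480 to 120960868, plus strand) encodes Mct4, which exports lactate from glycolytic cells. The Lrig1 GL libraries stood at 0.513, 0 and 0.64 CPM at 0w and at 20.9, 53.2 and 98.8 at 1w pw1. They held 5.36, 22.7 and 16.6 CPM at 2w pw1, 11, 6.36 and 3.06 at 4w pw1, 11.3, 3.05 and 6.43 at 8w pw1 and 7.55, 36.3 and 34.9 at 1w pw2. All 15 later libraries lay above the 3 at 0w. The 0w libraries held 2 counts in all against 283 at 1w pw1, a ratio of 206 (56.5 to 1709, 95% exact interval for counting error only), and edgeR's adjusted p was 0.0157. The Lgr5 GL libraries stood at 4.76, 0 and 0.689 CPM at 0w and at 549, 50.4 and 117 at 1w pw1. Later values were 7.48, 5.15 and 8.7 CPM at 2w pw1, 2.92, 5.03 and 2.02 at 4w pw1, 4.86, 0.731 and 3.32 at 8w pw1 and 3.11, 0.833 and 0.753 at 1w pw2. The rise at 1w pw1 was called (log2 fold change 6.98, SE 1.12, adjusted p = 0.0136), and was 5.49 without the replicate 1 library (adjusted p = 0.0579). Both populations moved from near 0 to levels over 20 CPM in every library at the first wound. The Lgr5 GL levels were back below 10 CPM by 2w pw1 and overlapped 0w from 4w pw1 on.

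Slc16a1 encodes Mct1, which carries lactate and pyruvate in either direction. Its Lrig1 GL level was 43.4 ± 32.9 CPM (SD, n = 3) before injury, 144 ± 52.8 at 1w pw1 and 231 ± 91.1 at 1w pw2. The Lgr5 GL level was 7.19 ± 7.66, 111 ± 127 and 10.8 ± 7.58 CPM at the same times. Neither 1w pw1 difference was called with edgeR, with adjusted p = 0.408 and 0.0748. Slc2a3, which encodes the high-affinity transporter Glut3, was at or under 8.04 CPM in every Lrig1 GL library and reached 21.4 CPM in only 1 Lgr5 GL library, at 4w pw1.

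**Figure D2:**
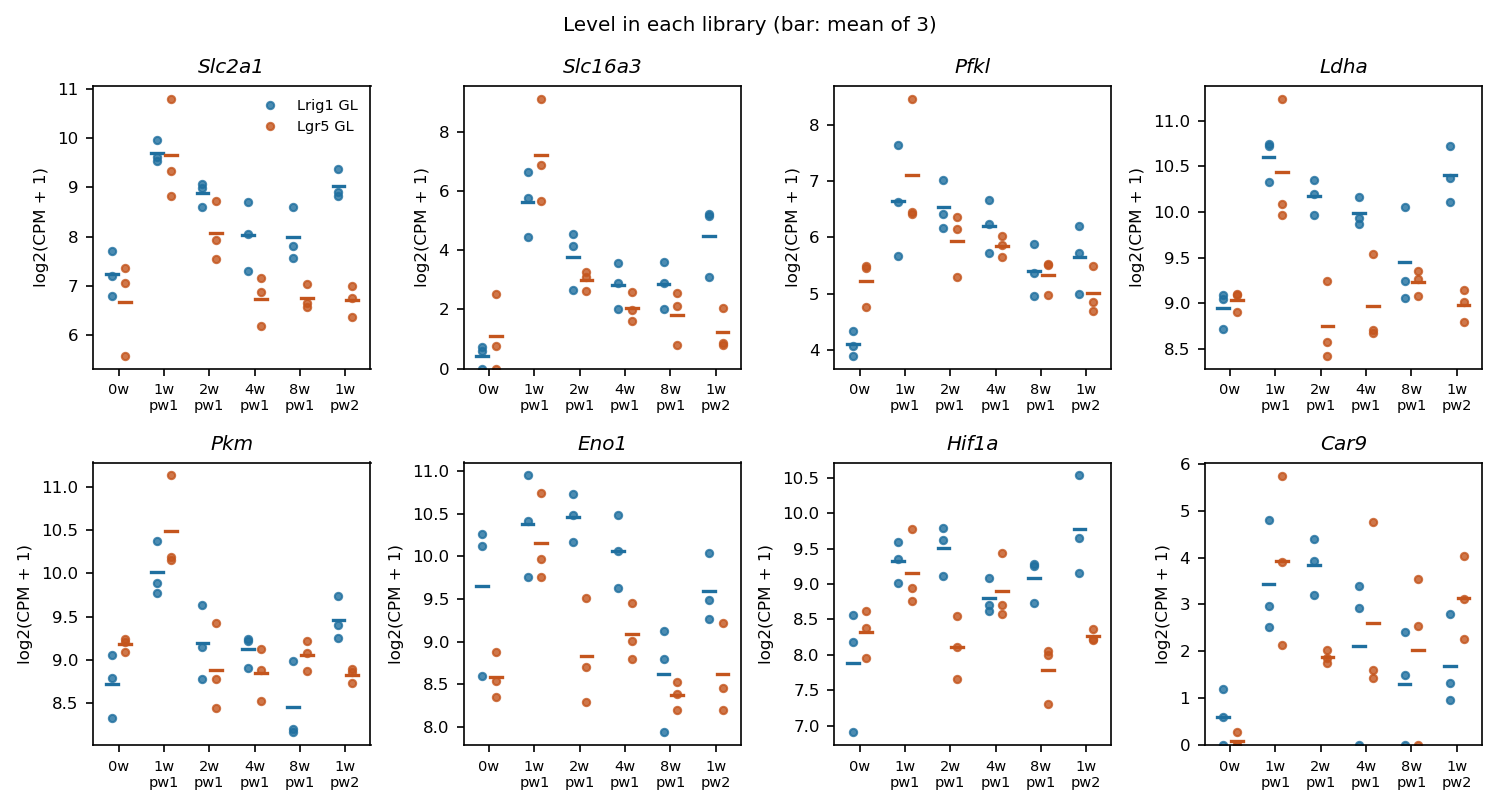
Level of 8 genes in each of the 36 libraries, as log2(CPM + 1), against time point (equally spaced), with Lrig1 GL cells in blue and Lgr5 GL cells in orange; each point is a library and each bar the mean of 3. Slc2a1, Slc16a3, Pfkl and Ldha are high at 1w pw1 in both populations, and their orange points at 1w pw2 overlap those of 0w.

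Among the 15 enzymes 14 had a log2 fold change above 0 at 1w pw1 in the Lrig1 population and 12 in the Lgr5 population. Their medians were 0.63 and 1.23, against -0.05 and -0.08 for all genes tested. The share of all genes with a fold above 0 is not given here. All 3 libraries lay above all 3 of 0w for 6 and 10 of the enzymes (7.51% and 9.98% of all genes). Of the enzymes 2 and 4 were called higher (0.168% and 0.427% of all genes). Without the replicate 1 library the Lgr5 GL median of the enzymes was 0.71. Pfkl (ENSMUSG00000020277.10, chromosome 10, 77986947 to 78010083, minus strand), the liver-type phosphofructokinase of the committed step, was called in both. Its Lrig1 GL libraries stood at 13.9, 15.8 and 19.2 CPM at 0w and at 98.7, 49.8 and 199 at 1w pw1. They held 84.5, 129 and 71 CPM at 2w pw1, 74.7, 101 and 51.5 at 4w pw1, 40.4, 29.9 and 57.9 at 8w pw1 and 73.1, 52 and 30.9 at 1w pw2. No later library overlapped 0w, although only the 1w pw1 difference was called (log2 fold change 2.83, SE 0.52, adjusted p = 0.0288). Pfkl in Lgr5 GL libraries stood at 44, 25.9 and 42.7 CPM at 0w and at 354, 84.3 and 87.1 at 1w pw1. It was at 81.7, 38.4 and 69.8 CPM at 2w pw1, 64.2, 57 and 49.1 at 4w pw1, 44.6, 30.5 and 45 at 8w pw1 and 43.8, 24.7 and 27.9 at 1w pw2. The 1w pw1 libraries lay above all of 0w (log2 fold change 2.22, SE 0.49, adjusted p = 0.0364), and the fold was 1.19 without the replicate 1 library (adjusted p = 0.191). The muscle and platelet isoforms, Pfkm and Pfkp, had log2 fold changes of 0.14 and 0.25 for Lrig1 GL and of -0.62 and -0.10 for Lgr5 GL, and neither was called.

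Ldha (ENSMUSG00000063229.15, chromosome 7, 46841475 to 46855627, plus strand), lactate dehydrogenase A, was the enzyme with the smallest time-course p in Lrig1 GL cells. Its libraries there stood at 545, 421 and 527 CPM at 0w and at 1716, 1288 and 1691 at 1w pw1. They held 1177, 1307 and 997 CPM at 2w pw1, 932, 1152 and 980.1 at 4w pw1, 534, 605 and 1067 at 8w pw1 and 1326, 1694 and 1105 at 1w pw2. The levels stayed above all 0w libraries through 4w pw1, overlapped them at 8w pw1 and lay above them again at 1w pw2. The 1w pw1 rise was called (log2 fold change 1.65, SE 0.27, adjusted p = 0.0157). The Lgr5 GL values were 479, 545 and 551 CPM at 0w and 2417, 1004 and 1089 at 1w pw1. They were 607, 381 and 344 CPM at 2w pw1, 742, 409 and 419 at 4w pw1, 655, 542 and 616 at 8w pw1 and 565, 445 and 515 at 1w pw2. Ldha overlapped 0w at each time but 1w pw1, where the rise was called (log2 fold change 1.52, SE 0.33, adjusted p = 0.0333). Without the replicate 1 library that fold was 0.99 (adjusted p = 0.15).

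Pkm, pyruvate kinase of the last step to pyruvate, had the smallest time-course p of the enzymes in Lgr5 GL cells. It stood there at 545, 606 and 592 CPM at 0w and at 2238, 1137 and 1164 at 1w pw1. Afterwards it held 689, 348 and 437 CPM at 2w pw1, 557, 471 and 369 at 4w pw1, 595, 467 and 541 at 8w pw1 and 475, 426 and 464 at 1w pw2. The 1w pw1 libraries were the highest of all 18 (log2 fold change 1.38, SE 0.29, adjusted p = 0.0307), with a fold of 0.98 without replicate 1 (adjusted p = 0.133). The Lrig1 GL libraries stood at 322, 442 and 530.3 CPM at 0w and at 949, 877 and 1327 at 1w pw1. They held 569, 797 and 438 CPM at 2w pw1, 596, 606 and 479.8 at 4w pw1, 287, 293 and 508 at 8w pw1 and 852, 611 and 675 at 1w pw2. Both wounds separated Pkm from 0w here, but the 1w pw1 difference was not called (1.28, SE 0.30, adjusted p = 0.106). A neighbouring gene shares 15.3% of the exon bases of Pkm on the same strand.

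Eno1, the ubiquitous enolase, stood at 324, 370.0 and 468 CPM at 0w and at 1708, 863 and 998 at 1w pw1 among Lgr5 GL libraries. Later values were 730.2, 414 and 311 CPM at 2w pw1, 699, 515 and 442 at 4w pw1, 367, 292 and 333 at 8w pw1 and 596, 349.6 and 292 at 1w pw2. The rise at 1w pw1 was called (log2 fold change 1.62, SE 0.35, adjusted p = 0.033), and was 1.26 without replicate 1 (adjusted p = 0.136). In Lrig1 GL cells the 0w libraries spread widely, with 1224, 385 and 1109 CPM, and the 1369, 863 and 1980 CPM at 1w pw1 overlapped them (0.63, adjusted p = 0.612). The later Lrig1 GL values were 1435, 1703 and 1147 CPM at 2w pw1, 791, 1431 and 1067 at 4w pw1, 244, 444 and 555 at 8w pw1 and 1050, 616 and 717 at 1w pw2. Enolase, aldolase and other members have near-identical copies elsewhere in the genome. Counts of Eno1b amounted to a median of 4.74% of those of Eno1 in Lrig1 GL and 7.73% in Lgr5 GL libraries. The highest values were 7.90% and 24.8%, so that the split of reads between Eno1 and Eno1b is uncertain. The median was 4.97% and 17.8% for Pgk1-rs7 beside Pgk1. For Pgam1-ps1 and Pgam1-ps2 together it was 11.3% and 19.2% of Pgam1, with a highest value of 52.3% among Lrig1 GL libraries. Named copies of Ldha, Aldoa and Tpi1 had medians of at most 8.01%. Copies of Gapdh were not counted.

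Tpi1, triosephosphate isomerase, stood at 135, 176 and 194 CPM at 0w and at 774, 340.2 and 382 at 1w pw1 among Lgr5 GL libraries. It was at 189, 91 and 181 CPM at 2w pw1, 254, 146 and 125 at 4w pw1, 232, 200.1 and 154 at 8w pw1 and 218, 110.3 and 126 at 1w pw2. The Lrig1 GL values of Tpi1 were 198, 97.5 and 109 CPM at 0w and 294, 256 and 411 at 1w pw1. At 4w pw1 they were 267, 277 and 155 CPM. Gpi1, glucose-6-phosphate isomerase, stood at 108, 89.4 and 114 CPM at 0w, 379, 126 and 142 at 1w pw1 and 107, 75.4 and 45.7 at 4w pw1 among Lgr5 GL libraries, and at 114, 97.9 and 82.6, 171, 131 and 187 and 85.6, 148 and 85.2 CPM among Lrig1 GL libraries. Neither isomerase was called against 0w, although the libraries of 1w pw1 lay above those of 0w for both genes in each population.

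Pgk1, the phosphoglycerate kinase that yields the first ATP of the pathway, stood at 153, 22.7 and 110.2 CPM at 0w and at 169, 156 and 279 at 1w pw1 among Lrig1 GL libraries. It was at 229.7, 167 and 275 CPM at 2w pw1, 62.2, 182 and 163 at 4w pw1, 90.3, 109.9 and 146 at 8w pw1 and 188, 239 and 164 at 1w pw2. The low 0w value of 22.7 CPM was replicate 2, and 1w pw1 lay above 0w without overlap (1.09, adjusted p = 0.456). Among Lgr5 GL libraries Pgk1 stood at 78.1, 118 and 172 CPM at 0w and at 464, 187 and 214 at 1w pw1. Later it was at 131, 89.3 and 126 CPM at 2w pw1, 227, 125 and 109.6 at 4w pw1, 78.6, 104 and 95.2 at 8w pw1 and 142, 103 and 106 at 1w pw2. Here too 1w pw1 did not overlap 0w and was not called (1.23, adjusted p = 0.10). The hexokinases, which phosphorylate incoming glucose, had smaller folds at 1w pw1 than the transporters Slc2a1, Slc16a1 and Slc16a3. Hk1 was at 0.16 in the Lrig1 and 0.50 in the Lgr5 population, and Hk2 at 0.01 and -0.45, on the log2 scale and with no call. Aldoa was at -0.05 and 0.47, Aldoc at 0.42 and 0.53, Pgam1 at 1.38 and 1.36 and Gapdh at 0.13 and 2.22, none of them called.

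**Figure D3:**
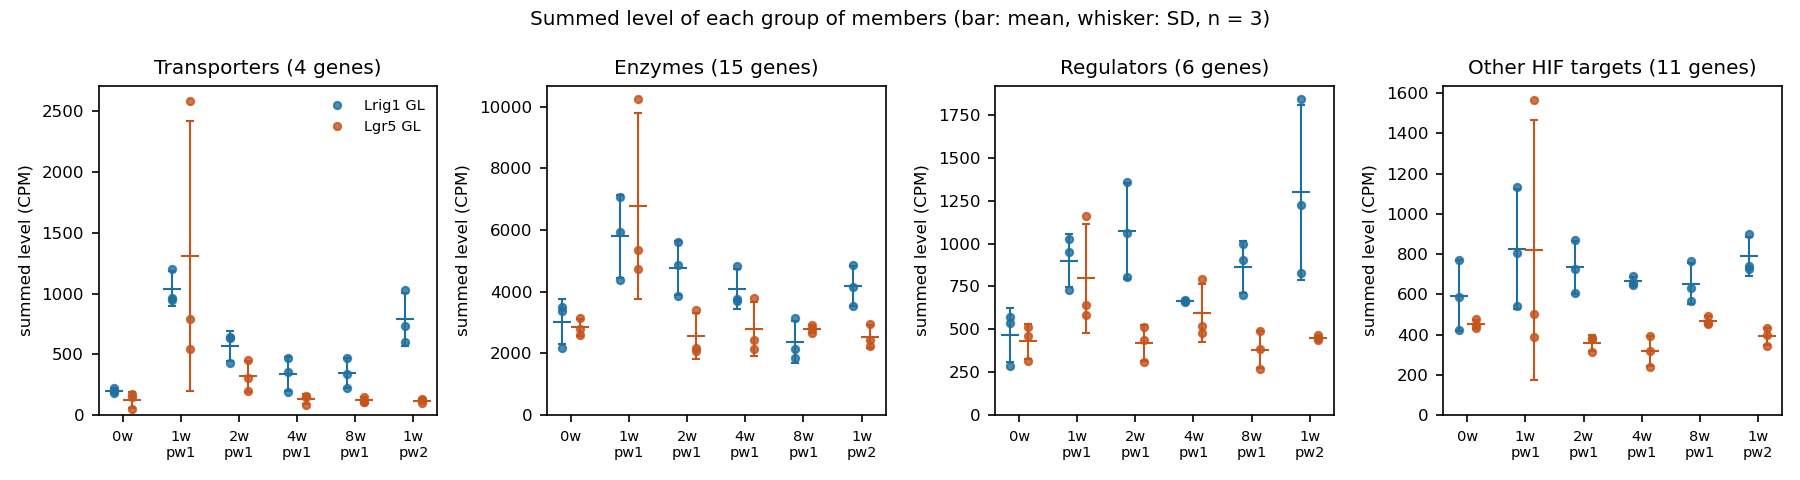
Summed level (CPM) of the members of each role in every library against time point (equally spaced), with the mean and SD of 3 libraries, Lrig1 GL cells in blue and Lgr5 GL cells in orange. The enzyme sum stood at 3019 ± 730 CPM at 0w and 5788 ± 1355 CPM at 1w pw1 in blue and at 2852 ± 275 and 6783 ± 3010 CPM in orange, where 1 library reached 10240 CPM.

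Of the regulators, 1 of 5 tested in the Lrig1 and 2 of 6 in the Lgr5 population were higher at 1w pw1 at an unadjusted p below 0.05. Of all genes 5.97% and 6.79% were. None of the regulators was lower at that threshold, and edgeR's adjusted p stayed above 0.05 for each. Hif1a (ENSMUSG00000021109.13, chromosome 12, 73901375 to 73947530, plus strand) encodes the oxygen-regulated subunit itself and had the smallest time-course p of the regulators in both populations (adjusted p = 0.087 and 0.10 with edgeR). Its Lrig1 GL libraries stood at 119, 289.9 and 378 CPM at 0w and at 654, 516 and 774 at 1w pw1. They held 549.7, 785 and 879.9 CPM at 2w pw1, 393, 417 and 540.0 at 4w pw1, 621, 423 and 608 at 8w pw1 and 569, 1481 and 805 at 1w pw2. Every Lrig1 GL library after the first wound lay above the 0w libraries, with 378 CPM as the highest value before injury and 393 CPM as the lowest after it. Hif1a among Lgr5 GL libraries stood at 392, 332 and 246 CPM at 0w and at 874, 434 and 489 at 1w pw1. It was at 276, 201 and 373 CPM at 2w pw1, 692, 380.1 and 415 at 4w pw1, 158, 254 and 265 at 8w pw1 and 328, 296 and 299 at 1w pw2. Here only 1w pw1 stood clear of 0w, and it was not called (0.89, adjusted p = 0.161).

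Pdk1, the kinase that switches off pyruvate dehydrogenase, stood at 137, 150.2 and 110.2 CPM at 0w and at 187, 146 and 84.9 at 1w pw1 among Lrig1 GL libraries. It was at 168, 108 and 329 CPM at 2w pw1, 98.1, 82.7 and 60.7 at 4w pw1, 247, 203 and 176 at 8w pw1 and 173, 266 and 274 at 1w pw2. At 8w pw1 and 1w pw2 these libraries lay above 0w, and at 4w pw1 below it, with no call at any time. Pdk1 among Lgr5 GL libraries stood at 84, 85.9 and 28.3 CPM at 0w and at 123, 87.7 and 94 at 1w pw1. Later values were 104, 63.8 and 114 CPM at 2w pw1, 65.2, 61.2 and 79.3 at 4w pw1, 78.6, 80.2 and 114 at 8w pw1 and 93.8, 90.6 and 89.2 at 1w pw2, again with no call.

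Egln3, a prolyl hydroxylase that marks the alpha subunit for degradation and is itself a HIF target, stood at 19.1, 19.9 and 7.93 CPM at 0w and at 106, 34 and 54.9 at 1w pw1 among Lgr5 GL libraries. Later it was at 15.1, 12.5 and 5.22 CPM at 2w pw1, 18.5, 16.3 and 3.36 at 4w pw1, 2.65, 22.9 and 80.9 at 8w pw1 and 13.5, 19.7 and 31.6 at 1w pw2. The 1w pw1 libraries lay above those of 0w, and the difference was not called (2.05, adjusted p = 0.199). The Lrig1 GL values were 24.1, 75.5 and 31.4 CPM at 0w and 52.2, 28.3 and 84 at 1w pw1, which overlapped (0.33, adjusted p = 0.899). They were 38.4, 123 and 86.5 CPM at 2w pw1, 114, 115 and 24 at 4w pw1, 77.6, 51.9 and 63.8 at 8w pw1 and 43.9, 50.5 and 78.9 at 1w pw2. Egln1, the main oxygen sensor of this enzyme family, had a fold of 0.68 (adjusted p = 0.758) in the Lrig1 and of 0.49 (adjusted p = 0.709) in the Lgr5 population at 1w pw1, by edgeR. Pfkfb3 and Pfkfb4, which set the level of the activator of phosphofructokinase, were at most 42.9 CPM in any library and at 0 in several of each population.

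Of the 11 other HIF targets only Car9 was called, once, in the Lgr5 population at 1w pw1 (0.427% of all genes were called higher there). Their median log2 fold change at 1w pw1 was 0.80 for Lrig1 GL and 1.16 for Lgr5 GL, or 0.02 without the replicate 1 library. At an unadjusted p below 0.05, 4 and 3 of them were higher (5.97% and 6.79% of all genes). Without the replicate 1 library 1 was in the Lgr5 population (5.02%). Car9 (ENSMUSG00000028463.14, chromosome 4, 43506966 to 43513729, plus strand) encodes a carbonic anhydrase at the cell surface and is a standard reporter of HIF activity. It had 1 count in the 3 Lgr5 GL libraries of 0w together and 245 at 1w pw1, at 52.5, 3.4 and 14.1 CPM. The ratio was 287 (51 to 11368, 95% exact interval for counting error only), and edgeR's adjusted p was 0.0403 with the replicate 1 library and 0.126 without it, where the ratio was 139.6 (24.4 to 5577). Car9 then stood at 3.1, 2.36 and 2.61 CPM at 2w pw1, 26.3, 1.68 and 2.02 at 4w pw1, 10.6, 0 and 4.83 at 8w pw1 and 15.3, 7.66 and 3.76 at 1w pw2. All 3 libraries of 2w pw1, 4w pw1 and 1w pw2 thus lay above 0w, at levels down to 1.68 CPM. The Lrig1 GL libraries had 3 counts at 0w and 69 at 1w pw1, at 4.75, 6.79 and 26.8 CPM, a ratio of 33.5 (11 to 166) that was not called (adjusted p = 0.298). Later they held 14.3, 8.19 and 19.9 CPM at 2w pw1, 9.46, 0 and 6.63 at 4w pw1, 0, 1.83 and 4.29 at 8w pw1 and 0.944, 1.5 and 5.92 at 1w pw2.

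Vegfa, the angiogenic ligand, had the smallest time-course p of these targets in Lrig1 GL cells (adjusted p = 0.236 with edgeR). It stood there at 0, 6.09 and 3.84 CPM at 0w and at 30.4, 15.8 and 69.7 at 1w pw1, then at 6.26, 19.5 and 11.5 at 2w pw1, 0, 7.95 and 6.12 at 4w pw1, 9.47, 7.33 and 9.11 at 8w pw1 and 11.3, 19.1 and 9.87 at 1w pw2. The 1w pw1 libraries lay above those of 0w without a call (3.52, SE 1.17, adjusted p = 0.259). Among Lgr5 GL libraries only replicate 1 was high at 1w pw1, with 56.4, 6.23 and 4.52 CPM against 9.3, 7.06 and 9.99 at 0w. The other Lgr5 GL values lay between 2.39 and 11 CPM.

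Bnip3, a receptor for mitophagy, stood at 10.3, 4.06 and 0 CPM at 0w and at 62.6, 10.2 and 17.1 at 1w pw1 among Lrig1 GL libraries (2.62, adjusted p = 0.397), and later between 1.99 and 38.9 CPM. The Lgr5 GL values were 19.1, 40.7 and 19.3 CPM at 0w and 129, 30.0 and 23.7 at 1w pw1 (1.21, adjusted p = 0.415), and later between 1.31 and 24.7 CPM. The groups overlapped in both populations, and replicate 1 was again the high Lgr5 GL library. Mxi1, an antagonist of MYC, had the smallest time-course p of these targets in Lgr5 GL cells (adjusted p = 0.104 with edgeR). Its libraries stood at 82.1, 35.9 and 53.1 CPM at 0w, 56.4, 28.3 and 37.4 at 1w pw1, 46.3, 57.5 and 44.6 at 2w pw1, 34, 47.8 and 35.6 at 4w pw1, 132, 96.3 and 92.4 at 8w pw1 and 79.2, 87.6 and 55.3 at 1w pw2. The highest levels came at 8w pw1, unlike those of the transporters.

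Ndrg1, a differentiation-related HIF target, Ero1l, an oxidase of the endoplasmic reticulum, and P4ha1 and P4ha2, which hydroxylate collagen, were each highest in the replicate 1 library of Lgr5 GL cells at 1w pw1, at 216, 227, 116 and 71.1 CPM. The other 2 libraries of that time lay within the range of 0w for Ero1l, P4ha1 and P4ha2 and below it for Ndrg1, at 17.5 and 28.7 against 33.8 CPM or more. Higd1a, a mitochondrial protein, stood at 53.8, 71.6 and 102 CPM at 0w and 433, 101 and 129.8 at 1w pw1 there, with replicate 1 as the high value. Bnip3l, a paralogue of Bnip3, and Ankrd37 were not called in any comparison either. Other genes share 22.3% of the exon bases of Bnip3, 26.4% of those of Ankrd37 and 22.5% of those of Higd1a, and since the strand setting is not stated these counts are uncertain.

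How long the rise lasted was read from the later time points. At 2w pw1 no member was called in either population, and 0% of all genes tested were. In the Lrig1 population 9 members had an unadjusted p below 0.05, all of them higher (10.5% of all genes did), and DESeq2 called 5 (1.98%). Among Lgr5 GL libraries 3 members did, 2 of them higher (8.79% of all genes), and DESeq2 called 0 (1.25%). The median log2 fold change was then 0.63 for Lrig1 GL and -0.10 for Lgr5 GL, against -0.01 and 0.03 for all genes. At 4w pw1 edgeR called no member against 0w in either population, where 0.0419% and 0.155% of all genes were called. An unadjusted p below 0.05 was reached by 6 members of the Lrig1 population, 5 of them higher (8.37% of all genes), and by 3 of the Lgr5 population, 2 of them higher (10.7%). DESeq2 called 2 and 1 members (0.879% and 1.70% of all genes).

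Set directly against 1w pw1, 6 members were lower at 4w pw1 in the Lgr5 population and none higher, where 1.19% of all genes were called lower and 1.95% higher. With edgeR's quasi-likelihood test these were Slc2a1 (-3.12, SE 0.52, adjusted p = 0.00946), Slc16a3 (-6.09, SE 1.10, adjusted p = 0.0112), Pkm (-1.70, SE 0.29, adjusted p = 0.00983), Ldha (-1.52, SE 0.33, adjusted p = 0.0254), Tpi1 (-1.52, SE 0.39, adjusted p = 0.0445) and Gpi1 (-1.51, SE 0.39, adjusted p = 0.0458), as log2 fold changes. Without the replicate 1 library 2 remained called, Slc2a1 at -2.32 (adjusted p = 0.0308) and Pkm at -1.31 (adjusted p = 0.0352). Without the 4w pw1 replicate c library none was. For Lrig1 GL cells the same comparison called none of 34 members and 0% of 14306 genes with edgeR, and 2 members with DESeq2 (1.14% of all genes). There 6 members, all lower, had an unadjusted p below 0.05 (8.46% of all genes). Slc2a1 had a log2 fold change of -1.58 (adjusted p = 0.293) and Ldha of -0.62 (adjusted p = 0.569).

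At 8w pw1 Slc16a3 alone was called in Lrig1 GL cells, where 1.52% of all genes were called higher and 1.31% lower. Its 48 counts against 2 at 0w gave a ratio of 22.9 (6.01 to 195, counting error only), with an adjusted p of 0.0493. Leaving out any of 16 of the 18 libraries took that call away. The 15 enzymes had a median log2 fold change of -0.25 at that time. Aldoa, at 112, 158 and 235 CPM against 496, 293 and 325 at 0w, lay below 0w without overlap (-1.14, adjusted p = 0.064). Slc2a1 (0.78, adjusted p = 0.205), Pfkl (1.39, adjusted p = 0.113) and Hif1a (1.07, adjusted p = 0.119) were not called. The 8w pw1 libraries carried the high mitochondrial share and low GC content given above. With the GC trend removed no member was called, and the Slc16a3 fold was then 4.58 (adjusted p = 0.0659) against 4.09 on the log2 scale. For Lgr5 GL cells edgeR called no member at 8w pw1 and 0% of 18025 genes, with 3 members, all higher, at an unadjusted p below 0.05 (5.94% of all genes) and none called by DESeq2 (0.458%).

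The second wound was made at 8w, and its libraries were first set against 0w, the control that 1w pw1 also used. In the Lrig1 population 4 members were called higher at 1w pw2 and none lower, where 0.993% of all genes were called higher and 0.238% lower. By edgeR's test Slc2a1 had a log2 fold change of 1.78 (SE 0.37, adjusted p = 0.0282). For Ldha it was 1.47 (SE 0.27, adjusted p = 0.020), and for Hif1a 1.86 (SE 0.40, adjusted p = 0.0325). Slc16a3 had 166 counts against 2, a ratio of 78.5 (21.4 to 654, counting error only), with an adjusted p of 0.0199. Hif1a lost its call once the trend with GC content was removed (0.91, adjusted p = 0.255). Its exons have a GC content of 41.3%, and the mean GC content of counted genes was 46.2% to 47.1% in the 1w pw2 libraries against 48.9% to 49.3% at 0w. Pfkl, called at the first wound, stood at 1.68 (adjusted p = 0.0968) at the second. Without the 0w replicate 1 library or the 1w pw2 replicate 2 library none of the 4 was called, and each kept its direction with any single library left out.

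For Lgr5 GL cells no member was called at 1w pw2 against 0w, and 0% of 18025 genes were called with edgeR. An unadjusted p below 0.05 was reached by 1 member, which was higher (6.42% of all genes), and DESeq2 called 1 (0.388%). Slc2a1 (-0.12, SE 0.48), Slc16a3 (-0.13, SE 1.05), Ldha (-0.05, SE 0.32), Pfkl (-0.22, SE 0.48) and Eno1 (0.09, SE 0.34) lay within 1 SE of 0 on the log2 scale. Of the others called at 1w pw1, Pkm lay below 0w without overlap (-0.35, adjusted p = 0.979) and Car9 above it without overlap. Car9 held 174 counts against 1, a ratio of 129 (22.8 to 5121, counting error only), with an adjusted p of 0.567. The members' median was -0.07.

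**Figure D4:**
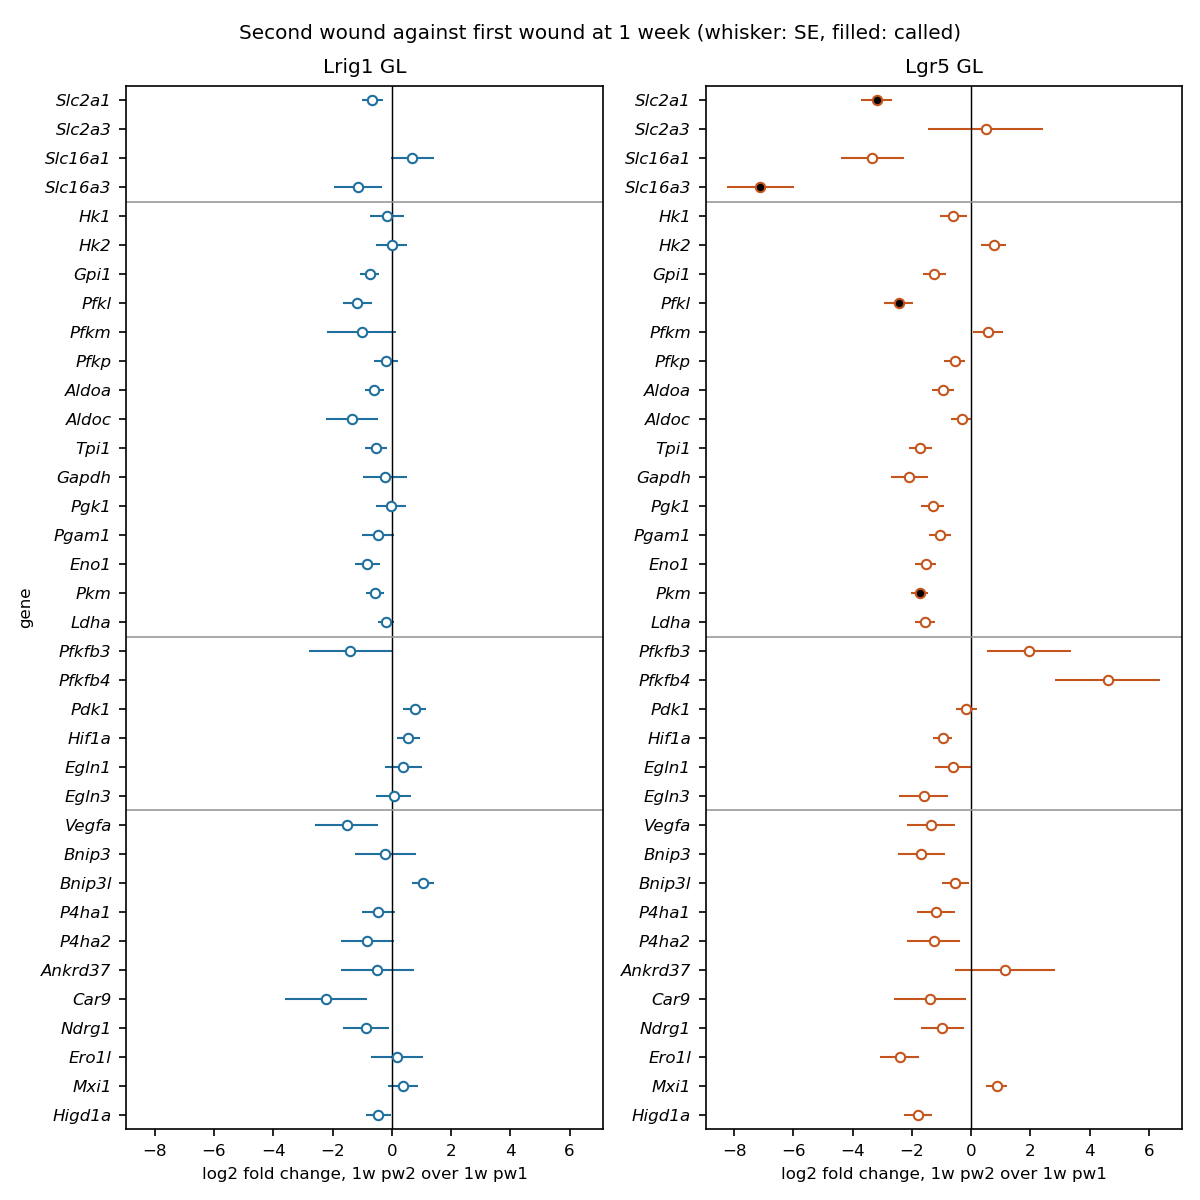
Log2 fold change of each gene at 1w pw2 over 1w pw1 with its SE, Lrig1 GL cells on the left and Lgr5 GL cells on the right; filled points were called and missing points were not tested. On the right 29 of 36 genes lay below 0 and 4 were called lower, and on the left 26 of 34 lay below 0 with none called. The median of all genes tested was 0.09 on the right and -0.01 on the left, and the share of them below 0 is not given here.

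Compared directly, 1w pw2 was lower than 1w pw1 for 4 members in the Lgr5 population and higher for none, where 0.0610% of all genes were called lower and 0.205% higher. With edgeR they were Slc2a1 (-3.19, SE 0.52, adjusted p = 0.0143), Slc16a3 (-7.11, SE 1.12, adjusted p = 0.0111), Pfkl (-2.44, SE 0.50, adjusted p = 0.0459) and Pkm (-1.73, SE 0.29, adjusted p = 0.0149), as log2 fold changes. None was called without the replicate 1 library of 1w pw1, where the same folds were -2.38, -5.65, -1.41 and -1.34, and none without replicate 2 or 3 of 1w pw2. All 3 libraries of 1w pw2 lay below all 3 of 1w pw1 for each of these 4 genes and for 19 of the 36 members, against 11% of all genes. In the Lrig1 population that was so for 4 of 34 members (8.81% of all genes). Here none of 34 members and 0% of 14306 genes were called with edgeR, and no member with DESeq2, which gave 2932 genes an adjusted p and called 5.90% of them. An unadjusted p below 0.05 was reached by 3 members, 1 of them higher (8.87% of all genes). All 15 enzymes had a fold below 0, with a median of -0.52 against -0.01 for all genes tested. The share of all genes with a fold below 0 is not given here. Of these enzymes 2 had an unadjusted p below 0.05, and 3 lay below 1w pw1 without overlap. Slc2a1 stood at -0.66 (SE 0.36, adjusted p = 0.609), Slc16a3 at -1.14 (SE 0.82, adjusted p = 0.727) and Hif1a at 0.55 (SE 0.39, adjusted p = 0.714), by edgeR. The Hif1a fold turned to -0.18 with the GC trend removed.

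Whether the 2 populations differed in these changes was tested as an interaction over all 36 libraries and 16153 genes. From 0w to 1w pw1 no member differed by edgeR (0.0495% of all genes did), with 1 member at an unadjusted p below 0.05 (15%). From 0w to 8w pw1 none differed either (1.11% of all genes), with 2 at an unadjusted p below 0.05 (17.6%). The change of Hif1a to 8w pw1 was higher for Lrig1 GL than for Lgr5 GL on the log2 scale by 1.65 (SE 0.52, adjusted p = 0.0989). DESeq2 called 0 and 1 members in these tests (3.07% and 5.88% of all genes). From 1w pw1 to 1w pw2 edgeR called no member (0.0557% of all genes), although 11 had an unadjusted p below 0.05 (12.7%), 10 of them with a more positive change in Lrig1 GL cells. Slc16a3 (6.07, SE 1.34, adjusted p = 0.0653) and Slc2a1 (2.59, SE 0.64, adjusted p = 0.0779) were among the 3 members called by DESeq2 (1.87% of all genes, adjusted p = 0.000737 and 0.0113) and were called by the likelihood ratio test (0.00383 and 0.0142). Without the Lgr5 GL replicate 1 library of 1w pw1 they were 4.49 (adjusted p = 0.218) and 1.71 (adjusted p = 0.297) in the quasi-likelihood test. The difference between the populations in the change from 0w to 1w pw2 was not tested.

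Over the whole time course 4 of 34 members were called in the Lrig1 population (1.63% of all genes) with edgeR, namely Slc2a1 (adjusted p = 0.0187), Slc16a3 (0.0239), Ldha (0.0294) and Pfkl (0.0474). Of the 36 in the Lgr5 population 6 were called (1.13% of all genes), namely Slc16a3 (adjusted p = 0.00137), Slc2a1 (0.00519), Pkm (0.00845), Ldha (0.0252), Eno1 (0.0361) and Pfkl (0.0369). Without the replicate 1 library 2 members were called there. The mean was highest at 1w pw1 for 27 of the 36 members among Lgr5 GL libraries, or for 21 without the replicate 1 library, and for 16 among Lrig1 GL libraries. In the latter 6 peaked at 2w pw1, 6 at 4w pw1, 5 at 1w pw2, 2 at 0w and 1 at 8w pw1. The share of all genes with their highest mean at each time is not given here, so that these counts do not set the members apart from other genes.

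Another 44 genes of the same pathways were listed apart from the members, and 31 of them were tested in the Lrig1 and 38 in the Lgr5 population. At 1w pw1 edgeR called none of the 31 in the Lrig1 population, and of the 38 in the Lgr5 population it called 1 higher and 1 lower, where the shares of all genes were those given for the members above. An unadjusted p below 0.05 was reached by 4 higher and 1 lower in the Lrig1 population (5.97% and 5.07% of all genes) and by 9 higher and 6 lower in the Lgr5 population (6.79% and 11.8%). Their median log2 fold changes were -0.01 and 0.0053, against 0.77 and 1.11 for the members. The higher one was Angptl4, a secreted inhibitor of lipoprotein lipase that HIF and PPAR factors induce. It had no count in any Lgr5 GL library of 0w and stood at 13, 17 and 12.7 CPM at 1w pw1, at least 57.5-fold higher (against 3 counts over the 0w group, adjusted p = 0.0197). At 4w pw1 it was called again, at 37.9, 5.45 and 27.6 CPM (at least 95.6-fold, adjusted p = 0.0282). The lower one was Hif1an, the asparaginyl hydroxylase that blocks HIF transactivation, at 35.4, 33.4 and 32.4 CPM at 0w and 4.57, 8.49 and 9.76 at 1w pw1 (-2.14, SE 0.45, adjusted p = 0.0307). At 1w pw2 in Lrig1 GL cells Fam162a, a mitochondrial HIF target, was called higher, at 530.0, 629 and 399 CPM against 178, 115 and 218 at 0w (1.61, SE 0.35, adjusted p = 0.0351). The other calls were Plod1, a collagen lysyl hydroxylase, lower at 8w pw1 in the Lrig1 population (-3.44, SE 0.82, adjusted p = 0.036), and Slc2a12, a further glucose transporter, lower at 4w than at 1w pw1 in the Lgr5 population (-4.22, SE 1.05, adjusted p = 0.0405). Of these genes only Angptl4 was called over the time course, in Lgr5 GL cells (adjusted p = 0.037).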

How the data were processed

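Full-length mRNA libraries were made from small pools of sorted cells with a modified Smart-seq2 protocol, without molecular identifiers. Per the labels and the study's methods, the authors trimmed reads with Trim Galore, aligned them to GRCm38 with HISAT2 and counted them per gene with featureCounts, and they deposited raw read counts in 1 table per population. The strand setting is not given in the sources used here. Of 36 columns, 15 carried the replicate number of the labels. The other 21 carried their group only and are called replicates a, b and c. The methods give n = 3 mice, and p-values measure the spread between these samples.

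Each population was fitted apart over its 18 libraries with edgeR 4.0.16 (TMM, filterByExpr with a minimum count of 10, quasi-likelihood F-test, prior count 0.125) in R 4.3.3, with Benjamini-Hochberg adjustment over all genes tested. Calls needed an adjusted p under 0.05 and, against 0w and over the time course, a log2 fold change above 1 in size. The time-course test compares all 6 time points at once, and its fold is the largest of the changes against 0w. The interactions used 1 model of the 12 groups. SE is the fold divided by the root of F. An exact permutation test of 3 against 3 cannot go below p = 0.1 and was not used. Intervals on count ratios cover counting error only, and a library's detection floor of 3 counts lay between 0.389 and 3.39 CPM. Gene positions and exon lengths come from GENCODE M21 (GRCm38). Scripts were tested on simulated counts.

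The members, lists and tests were chosen with earlier results of these data known. Every member may be named. Values per library are given for Slc2a1, Hif1a, Ldha, Pgk1, Pdk1, Vegfa, Bnip3 and Egln3 (some later values as ranges or left out), for members called in any test, and for the member with the smallest time-course p of each role, and further pathway genes are named where called. Alternatives were DESeq2 1.42.0, its size factors, the likelihood ratio test, no filter, removal of the GC trend, surrogate variables (sva 3.50.0), a replicate block and leaving out each library.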

Additional observations from a re-analysis of the deposited data

Results flagged for a closer look

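Pkm at 1w pw2 against 0w moved in opposite directions in the 2 populations. Its log2 fold change was 0.72 in Lrig1 GL cells, where all 3 libraries (852, 611 and 675 CPM) lay above all 3 at 0w (322, 442 and 530), and -0.35 in Lgr5 GL cells, where all 3 (475, 426 and 464 CPM) lay below all 3 at 0w (545, 606 and 592). Neither change was called (adjusted p = 0.212 and 0.979 with edgeR), and the difference between the populations for this pair of time points was not tested. Single outlying libraries were looked for only in groups of 4 or more, and every group here held 3.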

How the results depend on the processing

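Single-gene folds kept their direction in all but 1 of 237 recomputations under the other tools and settings and in all 648 that left out 1 library, whereas 45 and 133 of them lost their call. The exception was Hif1a at 1w pw2 against 1w pw1 in Lrig1 GL cells, at -0.18 with the GC trend removed against 0.55. The totals of 237 and 648 also hold folds that were not called in the main test and so had no call to lose. These were the interactions of Slc2a1, Slc16a3 and Ldha to 1w pw2, and the Lrig1 GL folds of Slc2a1, Slc16a3, Ldha and Hif1a at 1w pw2 against 1w pw1. DESeq2 called more members, beside the share of all genes in parentheses: in Lgr5 GL cells 13 (8.96%) at 1w pw1, 1 (0.388%) at 1w pw2 and 1 (1.70%) at 4w pw1 against 0w, 13 (6.30%) at 1w pw2 and 12 (12.2%) at 4w pw1 against 1w pw1, and 16 (10.4%) over the time course; in Lrig1 GL cells 8 (2.45%) at 1w pw1, 5 (1.98%) at 2w, 2 (0.879%) at 4w and 4 (11.9%) at 8w pw1 against 0w, 2 (1.14%) at 4w against 1w pw1, and 9 (14.3%) over the time course; and 1 (5.88%) and 3 (1.87%) in the interactions to 8w pw1 and to 1w pw2. The likelihood ratio test gave 13 (6.56%), 1 (0.222%), 1 (1.49%), 12 (4.24%), 12 (10.4%) and 18 (11%) for the same Lgr5 GL comparisons, in Lrig1 GL cells 5 (1.29%) at 2w, 1 (0.538%) at 4w and 2 (9.84%) at 8w pw1, 1 (0.329%) at 4w against 1w pw1 and 11 (14.0%) over the time course, and 2 (1.45%) in the interaction to 1w pw2. With surrogate variables Lgr5 GL cells had 1 at 1w pw1, 1 at 2w, 1 at 4w, 0 in both comparisons with 1w pw1 and 2 over the time course, and Lrig1 GL cells had 0 at 1w pw1, 1w pw2 and 8w pw1 and over the time course. The shares of all genes called with surrogate variables, with a replicate block or with a library left out are not given here. Counts under those settings can be read only against the main counts. Slc16a3 at 8w pw1, the 1 call in Lrig1 GL cells then, went to 0 without the filter on low counts and with the GC trend removed, although the Slc16a3 fold was then 4.58 (adjusted p = 0.0659) against 4.09. The cause of these shifts was not tested.

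With the replicate number as a block, possible for time points whose columns carry numbers, calls went to 1 (from 4) at 1w pw1 and 0 (from 4) at 1w pw2 against 0w in Lrig1 GL cells and to 0 (from 4) at 1w pw2 against 1w pw1 in Lgr5 GL cells. The numbers did not pair the samples: deviations of same-numbered libraries correlated at -0.058 to 0.12 over 9 pairs in Lrig1 GL and at -0.072 to 0.017 over 3 pairs in Lgr5 GL cells, and a library correlated best with its own number in 4 of 18 comparisons with another time point in Lrig1 GL and in 1 of 6 in Lgr5 GL cells.

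Leaving out 1 library gave 0 to 8 calls at 1w pw1 in Lgr5 GL cells (0 without 1w pw1 replicate 1, 2 without 0w replicate a or b, 4 without 4w replicate b or 1w pw2 replicate 3), 0 to 7 at 1w pw2 against 1w pw1 (0 without 1w pw1 replicate 1 or 1w pw2 replicate 2 or 3, 1 without 1w pw2 replicate 1, 7 without 1w pw1 replicate 2), 0 to 8 at 4w against 1w pw1 (0 without 4w replicate c, 3 without replicate b, 2 without 1w pw1 replicate 1) and 2 to 7 over the time course (2 without 1w pw1 replicate 1, 3 without 4w replicate c). In Lrig1 GL cells it gave 0 to 4 at 1w pw1 (0 without 0w replicate 1 or 2, 2 without 1w pw1 replicate 1 or 3), 0 to 4 at 1w pw2 (0 without 0w replicate 1 or 1w pw2 replicate 2, 1 without 0w replicate 2 or 1w pw2 replicate 3), 0 to 2 at 8w pw1 (within 1.5 times the count for 2 of 18 libraries) and 1 to 5 over the time course (1 without 1w pw1 replicate 3 or 1w pw2 replicate 2, 2 without 0w replicate 1 or 3, 1w pw1 replicate 1, 8w replicate a or b or 1w pw2 replicate 3). The interaction to 1w pw2 gave 0 to 2 (2 without Lgr5 GL 1w pw1 replicate 2, 1 without Lrig1 GL 0w replicate 2). With 3 libraries a group and totals down to 765252 counts, members near the floor (Slc2a3, Pfkfb4, Ankrd37, and Pfkfb3 in Lgr5 GL cells) could not be followed.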
